A study of Mus musculus with 9 samples.

Results

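The mechanistic target of rapamycin complex 1 (mTORC1) is a protein kinase complex that couples protein synthesis to the supply of amino acids, energy and insulin signals. Transcripts of 10 genes of the pathway were examined in mouse liver, of 20325 genes listed in each sample. They are the 3 genes of 4E-binding proteins (Eif4ebp1, Eif4ebp2, Eif4ebp3), 5 genes of proteins that restrain the complex (Ddit4, Sesn1, Sesn2, Sesn3, Tsc1) and the genes of the kinase itself and of its scaffold protein (Mtor, Rptor). They were chosen by gene symbol, and Eif4ebp3 and Ddit4 were taken because their levels were low in colonised mice. The values of those 2 genes in colonised mice are therefore given as a description, without a test. All 10 genes passed the filter on low counts, which left 12037 genes.

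Whole livers of male C57BL/6J mice on chow were compared in 3 groups of 3 samples. ConvD mice were germ-free mice colonised by gavage at 15 weeks of age with the cecal contents of mice raised conventionally, 4 weeks before the livers were taken. GF+SCFA mice stayed germ-free, and their drinking water held acetate at 67.5 mM, propionate at 25.9 mM and butyrate at 40 mM, short-chain fatty acids that gut microbes make from fibre. GF mice stayed germ-free and drank unsupplemented water, as far as the labels say. The growth protocol puts dissection at 19 weeks for the study's mice, whereas the design text gives an age of 14 weeks. Mice were housed together by colonisation status, so effects of cage and of colonisation cannot be told apart. Samples of a group are described as biological replicates in the design text, but no label ties a sample to an animal. The p-values therefore measure the spread between these samples. No time of day or feeding state at dissection is given in the sources used here.

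When mTORC1 is active, it phosphorylates the 4E-binding proteins, which then let go of the cap-binding factor eIF4E so that translation can start. The unphosphorylated binding proteins hold eIF4E and keep cap-dependent translation low. REDD1, the product of Ddit4, and tuberin's partner hamartin, the product of Tsc1, act through the TSC complex, which switches off the small GTPase Rheb, the direct activator of mTORC1. Sestrins act further upstream, at the GATOR complexes that read amino acid supply at the lysosome. In liver the pathway follows feeding and fasting. Activity of the kinase is set largely by phosphorylation and by protein location, which transcript levels do not measure.

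Library totals were 18193071 to 21627696 expected counts, and the 10 most abundant genes took 20.9% to 23.3% of them. Markers of hepatocytes summed to 101238 to 127118 CPM (counts scaled to a common library size) in ConvD, 100284 to 118896 CPM in GF+SCFA and 107007 to 123423 CPM in GF livers, most of it from the albumin gene Alb. Of these 6 markers, Cps1 and Cyp2e1 were called lower and Ttr higher in ConvD against both germ-free groups. Kupffer cell and macrophage markers summed to 488 to 704 CPM in ConvD, 367 to 450 CPM in GF+SCFA and 332 to 412 CPM in GF livers. Of the 10 macrophage markers, 8 were called higher in ConvD against GF, where 5.93% of all genes tested were. In ConvD against GF+SCFA 3 were called higher, where 9.44% of all genes tested were. The 5 neutrophil and monocyte markers summed to 8.29 to 11.9 CPM in ConvD, 1.44 to 1.64 CPM in GF+SCFA and 1.30 to 2.63 CPM in GF livers, with Ltf at 0 in both germ-free groups. The adipose markers Adipoq and Lep and the pancreas markers Prss2 and Ins2 were at 0 in all groups. Cela1, also a pancreas marker, was 15, 15.2 and 18.2 CPM in ConvD and higher in every germ-free liver. It was called lower in ConvD against GF (log2 -0.34) and against GF+SCFA (log2 -0.56). Cfd, also an adipose marker, was 6.6, 3.95 and 1.38 CPM in ConvD and 0.38, 0.693 and 1.27 CPM in GF livers. It was 1.13, 1.79 and 0.763 CPM in GF+SCFA livers and was not called in any comparison. The part of these other cells in the results was not tested. In whole tissue, fewer cells of a type and less RNA per cell cannot be told apart.

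Eif4ebp3 encodes the third 4E-binding protein, which in cultured cells is a transcriptional target of TFE3. Its level was 32.5, 30.9 and 24.8 CPM in ConvD livers, 103, 97.8 and 145 CPM in GF+SCFA livers, and 75.9, 99.4 and 99.9 CPM in GF livers. Every ConvD liver lay below every germ-free liver, and the highest ConvD value was under the lowest GF value. ConvD livers held 0.32 times the GF level, a log2 difference of -1.64 (SE 0.19). Against GF+SCFA the log2 difference was -1.97 (SE 0.19), or 0.255 times. Its lowest and highest values under the other settings were -1.76 and -1.53 against GF, and -2.07 and -1.77 against GF+SCFA. GF+SCFA and GF livers overlapped, with a log2 difference of 0.33 (SE 0.18, 95% confidence interval -0.08 to 0.74, adjusted p = 0.513 by edgeR's quasi-likelihood test). That difference was 0.13 (adjusted p = 0.815) without GF+SCFA replicate 3.

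Ankhd1 is the neighbour of Eif4ebp3 on the same strand, and transcripts that read through both genes are known in humans. Since reads of such transcripts could be assigned to either gene, its level was examined as well. It averaged 34.6 ± 2.52 CPM in ConvD, 35.0 ± 1.97 CPM in GF+SCFA and 38.7 ± 6.70 CPM in GF livers (SD, n = 3 each). Ankhd1 did not pass the test in any comparison, with a log2 difference of -0.16 (SE 0.11, adjusted p = 0.374) in ConvD against GF and -0.02 (adjusted p = 0.931) in ConvD against GF+SCFA.

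**Figure D1:**
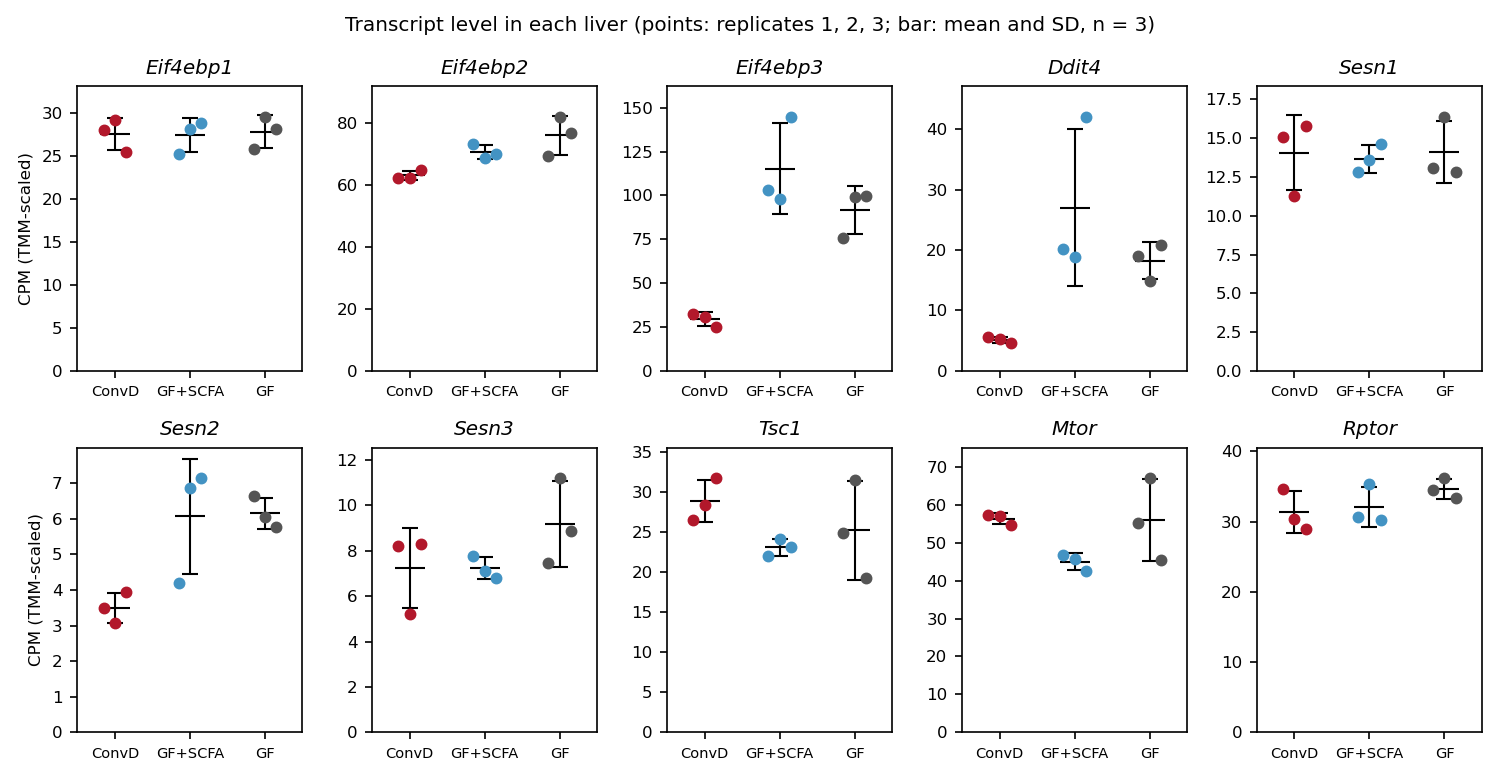
Level of each of the 10 genes in CPM (counts scaled to a common library size, y axis, from 0) in the ConvD, GF+SCFA and GF livers; points are single livers and bars are group means with their SD. Eif4ebp3 and Ddit4 are lower in all 3 ConvD livers than in any germ-free liver, and GF+SCFA replicate 3 is the highest of all for both.

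Ddit4 encodes REDD1, a stress-induced inhibitor of mTORC1 whose transcription is raised by glucocorticoids, low oxygen, DNA damage and endoplasmic reticulum stress. It was measured at 5.63, 5.27 and 4.62 CPM in the ConvD livers, 20.1, 18.9 and 42.1 CPM in the GF+SCFA livers, and 19.0, 14.9 and 20.9 CPM in the GF livers. The ConvD values were tightly grouped and lay under all 6 germ-free values, while GF+SCFA replicate 3 stood above the other 8 livers. The ConvD level was 0.284 times that of GF (log2 -1.82, SE 0.36), with other settings giving -1.95 to -1.57. It was 0.192 times that of GF+SCFA (log2 -2.38), and log2 -1.91 without GF+SCFA replicate 3. Between GF+SCFA and GF the log2 difference was 0.56 (SE 0.32, 95% confidence interval -0.20 to 1.33, adjusted p = 0.544). Without GF+SCFA replicate 3 it was 0.09 (adjusted p = 0.879).

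GF+SCFA replicate 3 was also high for Igfbp1 and Irs2, which are outside the 10 and belong to the list of FOXO genes and targets. Igfbp1, a secreted binding protein that FOXO factors induce, was 47.9, 30.2 and 25 CPM in ConvD, 125, 132 and 647 CPM in GF+SCFA, and 154, 294 and 452 CPM in GF livers. Irs2, an insulin receptor substrate, was 7.23, 3.03 and 5.31 CPM in ConvD, 4.99, 6.60 and 29.6 CPM in GF+SCFA, and 24.9, 19.2 and 23.8 CPM in GF livers. For both, replicate 3 lay above the other GF+SCFA livers. G6pc and Pdk4 of the same list were also highest there, at 537, 514 and 1011 CPM and 2.89, 4.87 and 8.51 CPM in GF+SCFA livers. Foxo1 did not stand out there, at 45.8, 49.1 and 48.3 CPM in GF+SCFA. Neither did Bcl6 (13.4, 38.4 and 24 CPM) and Gadd45a (1.47, 2.18 and 1.58 CPM) of that list. Genes of other lists were also highest there among GF+SCFA livers. Cebpb of the amino acid response list was 56.1, 58.2 and 111 CPM, and Mt2 of the glucocorticoid list 46.9, 45.5 and 100 CPM. The height of this liver was thus not particular to the FOXO list. Igfbp1, Irs2, G6pc, Pdk4, Bcl6, Gadd45a, Cebpb and Mt2 were named here after their values were seen. Igfbp1 (adjusted p = 0.0637) and Irs2 (adjusted p = 0.12) did not pass the test in ConvD against GF.

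Eif4ebp2, the 4E-binding protein best known from brain, was 62.3, 62.3 and 64.9 CPM in ConvD livers, 73.3, 68.9 and 70.2 CPM in GF+SCFA livers, and 69.6, 82.2 and 76.8 CPM in GF livers. All ConvD livers lay below all others in CPM. Relative to GF it fell in ConvD to 0.829 times (log2 -0.27, SE 0.07, adjusted p = 0.0234). This call rested on the scaling and on single livers. The adjusted p over all settings ran from 0.0155 to 0.174, and it passed 0.05 without GF replicate 2 (0.0883), GF replicate 3 (0.0501), ConvD replicate 1 (0.0756) or ConvD replicate 2 (0.0827). It also did so with upper-quartile factors, library totals, only the 2 groups compared, or limma on TPM. In TPM (transcript abundance scaled for length and depth) the groups overlapped, at 60.9, 57.3 and 57.5 TPM in ConvD against 60.3, 69.2 and 73.0 TPM in GF livers. The log2 difference in ConvD against GF+SCFA was -0.16 (SE 0.07, adjusted p = 0.124), and in GF+SCFA against GF it was -0.11 (adjusted p = 0.574).

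Eif4ebp1, the most studied 4E-binding protein and a classic readout of mTORC1 activity when phosphorylated, differed little. It was 28.0, 29.2 and 25.5 CPM in ConvD, 25.2, 28.2 and 28.9 CPM in GF+SCFA, and 25.8, 29.6 and 28.1 CPM in GF livers. The groups overlapped throughout. Its log2 difference was -0.01 in ConvD against GF (95% confidence interval -0.20 to 0.17, adjusted p = 0.947), 0.01 in ConvD against GF+SCFA (-0.18 to 0.20, adjusted p = 0.954) and -0.02 in GF+SCFA against GF (-0.21 to 0.16, adjusted p = 0.941).

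Per length, the order of the 3 binding proteins differed between colonised and germ-free livers. In ConvD livers Eif4ebp2 averaged 58.6 ± 2.01 TPM, Eif4ebp1 48.6 ± 4.95 TPM and Eif4ebp3 43.6 ± 7.95 TPM, and the last pair overlapped within their spread. In GF+SCFA livers Eif4ebp3 led with 160 ± 34.3 TPM, before Eif4ebp2 with 61.8 ± 1.04 TPM and Eif4ebp1 with 45.4 ± 3.86 TPM. In GF livers the order was the same, with 130 ± 23.5, 67.5 ± 6.51 and 46.7 ± 4.12 TPM (SD, n = 3 in each group). The 3 summed to 163, 154 and 135 TPM in ConvD, 244, 249 and 308 TPM in GF+SCFA, and 207, 250 and 275 TPM in GF livers. Every ConvD liver had a lower sum than every germ-free liver. Eif4ebp3 made up 28.8 ± 2.64% of that sum in ConvD, 59.5 ± 4.73% in GF+SCFA and 53 ± 2.30% in GF livers. Eif4e, which encodes their common binding partner, averaged 19.8 ± 0.441 TPM in ConvD, 21.5 ± 1.93 TPM in GF+SCFA and 20.8 ± 3.20 TPM in GF livers. The ConvD mean was within 1 SD of the GF mean. The sum was thus 7.62 ± 0.558 times the Eif4e level in ConvD, 12.5 ± 1.78 times in GF+SCFA and 11.9 ± 2.34 times in GF livers. These sums and ratios contain Eif4ebp3 and are a description only.

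**Figure D2:**
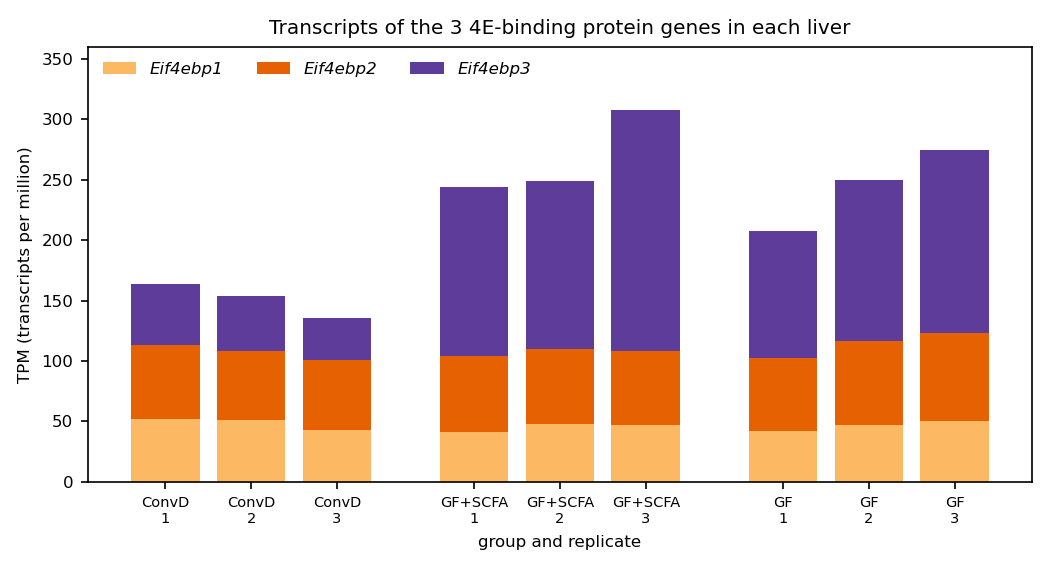
Stacked level of the 3 genes of 4E-binding proteins in TPM (y axis) in each of the 9 livers. The Eif4ebp3 segment is the smallest one in the ConvD livers and the largest one in every GF+SCFA and GF liver.

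Sesn2, the sestrin that senses leucine and is induced through p53 and ATF4, was the clearest of the genes that had not been chosen on their levels. It was 3.49, 3.08 and 3.93 CPM in ConvD livers, 4.20, 6.85 and 7.14 CPM in GF+SCFA livers, and 6.63, 6.04 and 5.77 CPM in GF livers, from 63 to 138 expected counts per liver. The ConvD livers lay below all germ-free livers, but only narrowly below GF+SCFA replicate 1. That liver had 74 expected counts, against 74.2 in ConvD replicate 3, so the order of these livers rests on the scaling. Sesn2 fell to 0.57 times in ConvD against GF (log2 -0.81, SE 0.19, adjusted p = 0.0137) and to 0.575 times in ConvD against GF+SCFA (log2 -0.80, SE 0.19, adjusted p = 0.0106). The first call was lost without GF replicate 1 (adjusted p = 0.0504) or ConvD replicate 2 (0.0586), and the second without GF+SCFA replicate 2 (0.0509) or GF+SCFA replicate 3 (0.0552). Over all settings the adjusted p ran from 0.00359 to 0.0586 against GF and from 0.00164 to 0.0552 against GF+SCFA. GF+SCFA and GF livers differed by -0.01 on the log2 scale (95% confidence interval -0.40 to 0.37, adjusted p = 0.982).

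The other sestrins overlapped between the groups. Sesn1, a p53 target, was 15.1, 11.3 and 15.8 CPM in ConvD, 12.8, 13.6 and 14.6 CPM in GF+SCFA, and 13.1, 16.4 and 12.8 CPM in GF livers, with a log2 difference of -0.01 in ConvD against GF (95% confidence interval -0.29 to 0.27, adjusted p = 0.985). Sesn3, a FOXO target, was 8.20, 5.22 and 8.29 CPM in ConvD, 7.77, 7.10 and 6.82 CPM in GF+SCFA, and 7.44, 11.2 and 8.87 CPM in GF livers. Its log2 difference in ConvD against GF was -0.35 (SE 0.18, adjusted p = 0.23). Neither gene passed the test in the other comparisons.

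Tsc1 was 26.5, 28.3 and 31.7 CPM in ConvD, 22, 24.1 and 23.1 CPM in GF+SCFA, and 24.9, 31.5 and 19.2 CPM in GF livers. The ConvD livers lay above the GF+SCFA livers, while the GF values spread across both. Its log2 difference was 0.32 in ConvD against GF+SCFA (SE 0.15, adjusted p = 0.152) and 0.19 in ConvD against GF (adjusted p = 0.421). The first of these was called with library totals (0.39, adjusted p = 0.0384), with only the 2 groups compared (0.32, adjusted p = 0.0238), and without GF replicate 2 (adjusted p = 0.0481) or GF replicate 3 (adjusted p = 0.0335), within a range of 0.0238 to 0.348.

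Mtor, the kinase, was 57.3, 57.0 and 54.6 CPM in ConvD, 46.8, 45.7 and 42.4 CPM in GF+SCFA, and 55.2, 67.0 and 45.4 CPM in GF livers. ConvD and GF livers overlapped (log2 0.01, 95% confidence interval -0.23 to 0.25, adjusted p = 0.962). The ConvD livers lay above the GF+SCFA livers, by 0.32 on the log2 scale (SE 0.11), with adjusted p = 0.0606. This difference was called in 7 of 17 other settings, and its adjusted p ran from 0.00696 to 0.182. In GF+SCFA against GF the log2 difference was -0.31 (SE 0.11, adjusted p = 0.31), and -0.44 (adjusted p = 0.0236) without GF replicate 3, within a range of 0.0236 to 0.746. Rptor, which encodes the scaffold raptor, overlapped between all groups, at 34.7, 30.4 and 29.0 CPM in ConvD, 30.7, 35.4 and 30.2 CPM in GF+SCFA, and 34.5, 36.2 and 33.3 CPM in GF livers. Its log2 difference was -0.14 in ConvD against GF (SE 0.09, adjusted p = 0.316).

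**Figure D3:**
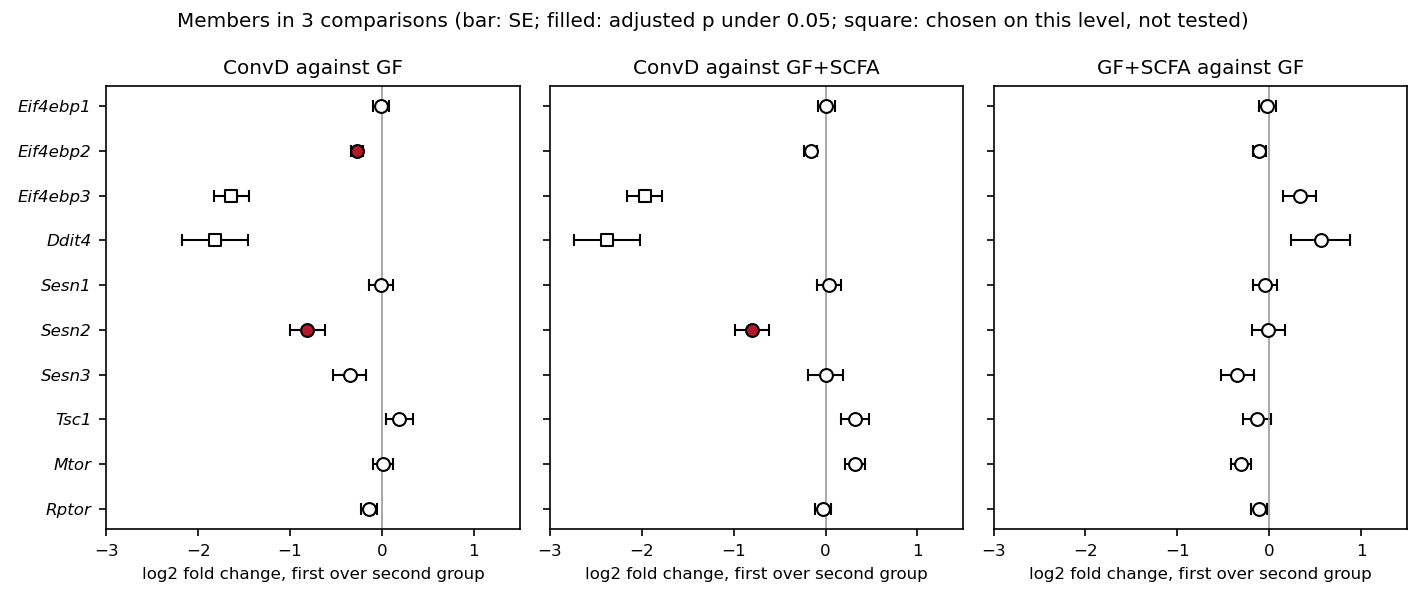
Log2 difference of each of the 10 genes (x axis) in the 3 comparisons, with the SE as horizontal bars; filled circles are called at an adjusted p under 0.05, open circles are not called, and squares are the pair chosen on its ConvD levels, which was not tested there. In ConvD against GF, Eif4ebp2 at -0.27 and Sesn2 at -0.81 are called, and in GF+SCFA against GF no gene is.

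Counted together, 2 of the 8 genes tested in ConvD against GF were called lower and 0 higher, where 12.8% of all genes tested were called, 6.90% lower and 5.93% higher. The groups did not overlap for 4 of the 10 genes, all lower in ConvD, against 31.6% of all genes, 15.9% lower and 15.7% higher; 2 of the 4 are the pair chosen on its levels. For ConvD against GF+SCFA, 1 of 8 was called lower and 0 higher, where 18.4% of all genes were called, 8.97% lower and 9.44% higher. There the groups did not overlap for 4 genes lower and 2 genes higher in ConvD, Tsc1 and Mtor, against 38% of all genes, 18.9% lower and 19% higher. Between GF+SCFA and GF, 0 of 10 were called by edgeR, where 0.0415% of all genes were, or 5 of 12037, with 0.0332% lower and 0.00831% higher. None of the 10 had groups that did not overlap in that comparison, against 17.9% of all genes, 8.86% lower and 9.06% higher. Of the 10, only Mtor had an unadjusted p under 0.05 there, as did 1477 of all genes, and DESeq2 called 0 of the 10 and 82 of all genes. With 8 genes, counts this small do not set the genes apart from the rest.

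Which way the called genes went depended on the scaling. Of the genes called in ConvD against GF, 46.2% were higher, and this share was 66.1% with upper-quartile factors, 73.1% with library totals and 75.5% with limma on TPM. Of those called in ConvD against GF+SCFA, 51.3% were higher, and this share was 66.8%, 72.4% and 77.6% under those settings.

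Ordered by TPM, Ddit4 moved most among the 10, which follows in part from its choice for low ConvD levels. It was the ninth in ConvD livers, at 5.12 ± 0.751 TPM, and the fourth in GF+SCFA livers at 25 ± 11.9 TPM and in GF livers at 17.3 ± 3.91 TPM (SD, n = 3 each). Sesn2 was the lowest in every group, at 2.15 ± 0.241 TPM in ConvD, 3.51 ± 0.982 TPM in GF+SCFA and 3.60 ± 0.217 TPM in GF livers. Mtor, Sesn1, Rptor, Sesn3 and Tsc1 lay between 4.50 and 10.5 TPM on average in all groups.

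The promoter windows of 3 genes are printed here. Their ConvD values in CPM lay below those of all germ-free livers, and they have a window in the RefSeq table. For Eif4ebp2 the groups overlapped in TPM, and its call against GF was lost under several settings. Each window holds 250 bases before and 50 bases after the transcription start in GRCm38.p6, read on the gene's strand. The windows are chr10:59951721-59952020 (minus strand) for Ddit4, chr4:132510407-132510706 (minus strand) for Sesn2 and chr10:61452620-61452919 (minus strand) for Eif4ebp2. Capitals mark matches, on either strand, to the motifs searched.
Ddit4: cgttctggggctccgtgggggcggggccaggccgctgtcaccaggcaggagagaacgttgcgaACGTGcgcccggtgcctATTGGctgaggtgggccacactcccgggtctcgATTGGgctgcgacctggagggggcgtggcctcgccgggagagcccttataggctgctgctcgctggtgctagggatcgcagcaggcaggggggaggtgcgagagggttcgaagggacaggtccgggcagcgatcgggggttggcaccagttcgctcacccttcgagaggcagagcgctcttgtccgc
Sesn2: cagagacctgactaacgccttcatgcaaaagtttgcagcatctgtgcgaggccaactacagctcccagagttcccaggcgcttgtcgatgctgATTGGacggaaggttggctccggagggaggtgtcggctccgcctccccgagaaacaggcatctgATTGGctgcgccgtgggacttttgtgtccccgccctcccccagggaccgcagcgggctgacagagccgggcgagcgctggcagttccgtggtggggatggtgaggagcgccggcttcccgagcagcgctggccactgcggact
Eif4ebp2: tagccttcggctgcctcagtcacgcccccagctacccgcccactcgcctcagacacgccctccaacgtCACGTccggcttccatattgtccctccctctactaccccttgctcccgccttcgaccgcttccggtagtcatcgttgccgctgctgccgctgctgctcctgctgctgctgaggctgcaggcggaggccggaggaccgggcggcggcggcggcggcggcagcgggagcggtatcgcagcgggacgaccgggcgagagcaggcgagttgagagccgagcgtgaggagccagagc

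The motifs were ACGTG, the core of hypoxia elements and of many E-boxes, CACGTG, the E-box to which TFEB and TFE3 bind, GTAAACA, a forkhead site, TGATGCAAT, an element of ATF4 and C/EBP factors, and CCAAT. The E-box contains ACGTG. Ddit4 held 1 ACGTG on its own strand, 187 bases before the start, and 2 CCAAT boxes on the opposite strand, 170 and 137 bases before it. Sesn2 held 2 CCAAT boxes on the opposite strand, 157 and 93 bases before the start. Eif4ebp2 held 1 ACGTG on the opposite strand, 182 bases before the start. No match to the E-box, the forkhead site or the ATF4 element was found in these 3 windows. Among 32851 windows of the same length, 19.6% held ACGTG, 37.4% CCAAT, 7.15% CACGTG, 3.65% GTAAACA and 0.192% TGATGCAAT. These matches are letters in a window and not sites of binding. Windows were found for 8 of the 10 genes. Among those not printed, Mtor and Sesn3 held 4 CCAAT boxes each, every Sesn1 window held 1, and Rptor held 1 ACGTG. A Sesn1 window also held 1 forkhead site, and Tsc1 held no match. CCAAT and ACGTG were thus also found near genes that were not called in ConvD against GF.

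The surrounding pathway was described through 7 lists of 83 genes, 81 of them tested. Of these, 1 was called higher and 9 lower in ConvD against GF, or 12.3%. Among all genes tested 12.8% were called there, 5.93% higher and 6.90% lower. The median log2 difference of the 81 was -0.04, against 0 for all genes tested. The count of called pathway genes ran from 3 to 11 when single livers were left out. It was 3 without ConvD replicate 1, 4 without ConvD replicate 2 and 5 without GF replicate 1. Against GF+SCFA, 4 were called higher and 4 lower in ConvD (9.88%), with a median of -0.04 against 0.01, and the counts were 4 without GF+SCFA replicate 2 and 5 without ConvD replicate 1. For GF+SCFA against GF, edgeR called 0 of 81. The called share of the pathway was thus near or below that of all genes.

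Of 13 translation initiation factors and partners tested, 4 fell in ConvD against GF, where 6.90% of all genes did. Against GF+SCFA 3 fell in ConvD, where 8.97% of all genes did. Eif4e3, an eIF4E relative, was 6.45, 9.13 and 9.83 CPM in ConvD, 15.1, 14.5 and 14.3 CPM in GF+SCFA, and 15.3, 11.4 and 11.1 CPM in GF livers. It fell by 0.57 on the log2 scale against GF (SE 0.16, adjusted p = 0.0294). Mknk2, which encodes a kinase that phosphorylates eIF4E, averaged 132 ± 13.2 CPM in ConvD and 171 ± 11.7 CPM in GF livers (SD, n = 3 each), a log2 difference of -0.37 (adjusted p = 0.0231). Eif4g2 and Eif4g1, genes of scaffold proteins of initiation, fell by 0.23 and 0.24 (adjusted p = 0.0373 and 0.0475); Eif4g1 was named after its values were seen. Eif4e3 lost its call in 3 of 9 refits without 1 liver, with its highest adjusted p, 0.108, without GF replicate 1. Mknk2 lost it in 2 of 9 (0.102 without ConvD replicate 2), and Eif4g2 in 8 of 9 (0.104 without ConvD replicate 1). The call of Eif4g1 was not followed through these refits.

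Among the insulin and AMPK inputs, 3 of 17 fell in ConvD against GF, where 6.90% of all genes did, and none rose. In ConvD against GF+SCFA 0 of 17 were called, where 18.4% of all genes were. Insr, the insulin receptor, averaged 131 ± 3.40 CPM in ConvD and 161 ± 14.3 CPM in GF livers (log2 -0.31, adjusted p = 0.0177). Its level in ConvD was close to the 129 ± 7.06 CPM of GF+SCFA livers (log2 0.01, adjusted p = 0.913). Pdpk1 and Akt1, kinases in series below the receptor, fell by 0.34 and 0.35 on the log2 scale (adjusted p = 0.0157 and 0.0173). Leaving out single livers lost the call of Insr in 3 of 9 refits (up to 0.0722 without ConvD replicate 2), of Pdpk1 in 3 (up to 0.061 without ConvD replicate 1) and of Akt1 in 2 (up to 0.0707 without ConvD replicate 1).

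Deptor, a further inhibitor that binds mTOR directly, was 92.7, 70.0 and 86.9 CPM in ConvD, 87.8, 93.9 and 90.4 CPM in GF+SCFA, and 104, 125 and 106 CPM in GF livers. It fell by 0.42 on the log2 scale in ConvD against GF (SE 0.10, adjusted p = 0.0159) and differed by -0.13 in ConvD against GF+SCFA (adjusted p = 0.41). Its call was lost in 2 of 9 refits, with 0.0596 without ConvD replicate 2. It was the only one of 10 other subunits and assembly factors called in ConvD against GF. Among all genes tested 12.8% were called there, 6.90% lower and 5.93% higher, so this count was near the share of all genes.

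Maf1, a repressor of RNA polymerase III that mTORC1 phosphorylates, averaged 10 ± 1.06 CPM in ConvD, against 13.1 ± 1.15 CPM in GF livers (log2 -0.39, adjusted p = 0.035). Its call was lost without GF replicate 2 (0.12), ConvD replicate 1 (0.118), ConvD replicate 3 (0.0877) or GF replicate 3 (0.0629). It also fell in ConvD against GF+SCFA, by 0.46 (adjusted p = 0.0132). There, Ulk1, an autophagy kinase that mTORC1 inhibits, rose by 0.37 (adjusted p = 0.0104), and Pdcd4, an inhibitor of the helicase eIF4A, by 0.60 (adjusted p = 0.0169). Ulk1 and Pdcd4 were named after their values were seen.

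Flcn rose in ConvD livers against both germ-free groups, the only gene of the Rag and Ragulator list to do so. Of 12 genes of that list tested, 1 was called higher against GF and 2 against GF+SCFA. Of all genes, 5.93% and 9.44% were called higher in these comparisons. Flcn encodes folliculin, which acts on the Rag GTPases that bring mTORC1 to the lysosome and is itself a target of TFEB and TFE3. It was 25.4, 31.4 and 25.1 CPM in ConvD, 17.6, 18.2 and 19.4 CPM in GF+SCFA, and 16.6, 18.7 and 19.6 CPM in GF livers. The log2 difference was 0.58 against GF (SE 0.10, adjusted p = 0.00306) and 0.57 against GF+SCFA (adjusted p = 0.00201). The call against GF was kept in all 9 refits without 1 liver. Fnip2, a folliculin partner named after its values were seen, rose in ConvD against GF+SCFA (log2 0.59, adjusted p = 0.012) but not in ConvD against GF (0.14, adjusted p = 0.543); the difference between these 2 comparisons was not tested.

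**Figure D4:**
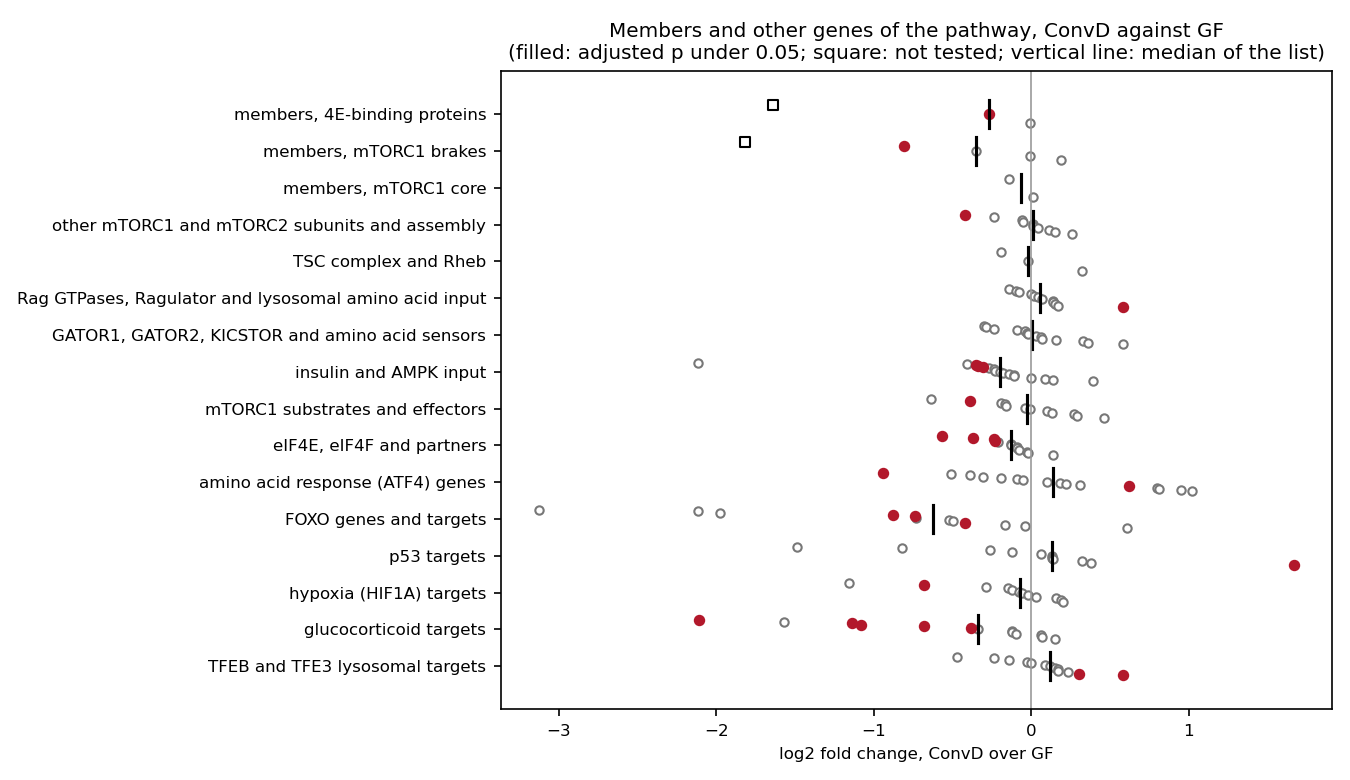
Log2 difference in ConvD against GF (x axis) of each gene tested, 1 point a gene, in the lists of the 10 genes, of the pathway around them and of transcriptional inputs (rows); filled points are called, open squares were not tested and vertical lines are list medians. The glucocorticoid list has 5 filled points, all below 0, with a median of -0.34, and the eIF4E and eIF4F list has 4, all below 0, with a median of -0.13.

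Lists of transcriptional inputs known for Ddit4, the sestrins and Eif4ebp3 were counted in the same way, without a test between lists. Of 13 glucocorticoid targets 5 fell and 0 rose in ConvD against GF, with a median log2 difference of -0.34 against 0 for all genes, of which 6.90% were called lower. Among them Tat, a tyrosine-degrading enzyme, averaged 1464 ± 142 CPM in ConvD and 3232 ± 613 CPM in GF livers (log2 -1.14, adjusted p = 0.00153). Tsc22d3, which encodes the glucocorticoid-induced leucine zipper, averaged 111 ± 21.6 CPM in ConvD and 177 ± 22.2 CPM in GF livers (log2 -0.68, adjusted p = 0.00724). Both calls were kept in all 9 refits without 1 liver. Fkbp5, a chaperone partner of the glucocorticoid receptor, fell by 1.08 (adjusted p = 0.0372), but lost its call in 7 of 9 refits, with 0.102 without ConvD replicate 1. Zbtb16 and Sgk1, named after their values were seen, made up the 5. In ConvD against GF+SCFA 5 of 13 also fell, where 8.97% of all genes did.

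Of 12 FOXO genes and targets tested, 3 fell and 0 rose in ConvD against GF, with a median of -0.62, where 6.90% of all genes fell. In ConvD against GF+SCFA 3 fell and 1 rose, with a median of -0.73, where 8.97% of all genes fell and 9.44% rose. Foxo1, a transcription factor that insulin signalling inactivates, was 26.2, 29.1 and 28.8 CPM in ConvD, 45.8, 49.1 and 48.3 CPM in GF+SCFA, and 44.1, 43.7 and 52.7 CPM in GF livers. Its log2 difference was -0.74 against GF (SE 0.09, adjusted p = 0.00018). Pck1, a gluconeogenic enzyme, and Klf15, a fasting-induced factor, fell by 0.88 and 0.42 (adjusted p = 0.00018 and 0.00922). All 3 kept their calls without any single liver.

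In the remaining lists the called share in ConvD against GF was near the 12.8% of all genes. The amino acid response list had 1 gene higher and 1 lower of 16. Atf5, a transcription factor of that response, averaged 96.3 ± 19.0 CPM in ConvD and 62.8 ± 6.21 CPM in GF livers (log2 0.62, adjusted p = 0.0285), and lost its call in 4 of 9 refits (0.0982 without GF replicate 3, 0.0915 without GF replicate 1, 0.0904 without ConvD replicate 2 and 0.0528 without ConvD replicate 1). Eif2ak3, which encodes the endoplasmic reticulum stress kinase PERK, averaged 10.1 ± 1.46 CPM in ConvD and 19.4 ± 2.79 CPM in GF livers (log2 -0.94, adjusted p = 0.00867). Of 11 p53 targets, 1 was higher, Eda2r at 0.920 ± 0.253 CPM in ConvD and 0.282 ± 0.0645 CPM in GF livers (log2 1.67, adjusted p = 0.0145); its call was lost without ConvD replicate 1 (0.0584) or GF replicate 1 (0.0542). Of 12 hypoxia targets, 1 was lower, the glucose transporter gene Slc2a1 at 7.98 ± 1.31 CPM in ConvD and 12.7 ± 0.860 CPM in GF livers (log2 -0.68, adjusted p = 0.00328). Of 13 targets of TFEB and TFE3, 2 were higher and 0 lower, Flcn and the autophagy receptor gene Sqstm1 (log2 0.30, adjusted p = 0.0212). Sqstm1 lost its call without ConvD replicate 1 (0.0888), GF replicate 1 (0.0859) or GF replicate 3 (0.0529).

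**Figure D5:**
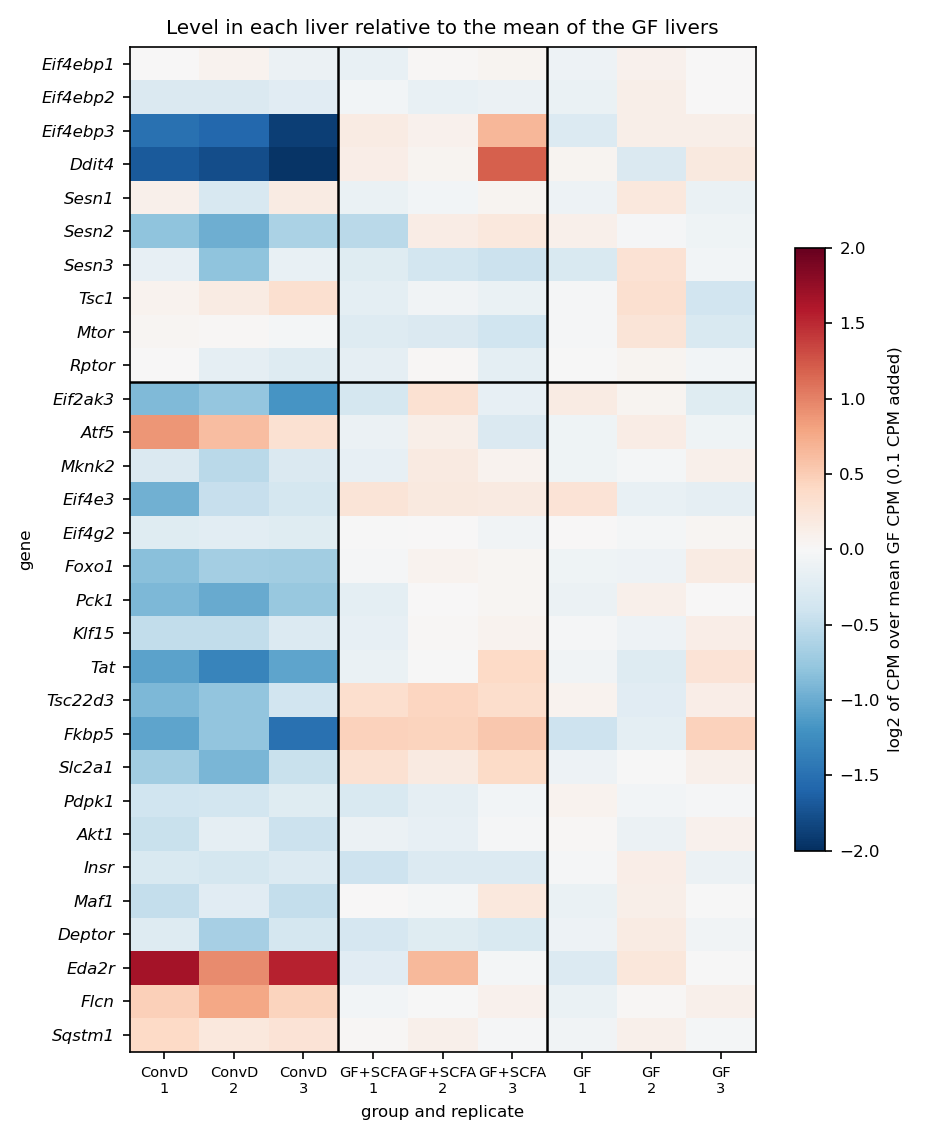
Log2 level of the 10 genes and of the further named genes in each of the 9 livers, relative to the mean of the GF livers (colour scale, with 0.1 CPM added, blue lower and red higher), with ConvD livers at the left, GF+SCFA livers in the middle and GF livers at the right. Eif4ebp3, Ddit4, Sesn2 and Foxo1 are lower in all 3 ConvD livers, Flcn is higher, and GF+SCFA replicate 3 stands apart for Ddit4 at 42.1 CPM.

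The genes whose levels followed those of Eif4ebp3 and Ddit4 most closely were found by Pearson's r of log2 CPM over the 9 livers, which share the group differences and the library scaling. For Eif4ebp3 these were Por (0.981), Tcp1 (0.979), Ppme1 (0.978), Il1rap (0.978) and Wdr47 (0.976). Por, the electron donor of microsomal cytochromes P450, averaged 329 ± 22 CPM in ConvD, 709 ± 27.9 CPM in GF+SCFA and 646 ± 70.1 CPM in GF livers. For Ddit4 they were Cyp2c70 (0.975), Eif4ebp3 (0.972), Raph1 (0.971), E130012A19Rik (0.971) and Tat (0.970). Since Eif4ebp3 and Ddit4 had both been chosen for low ConvD levels, a high r between them follows in part from that choice. Cyp2c70, the enzyme that makes muricholic acids in mice, averaged 401 ± 36.3 CPM in ConvD, 855 ± 188 CPM in GF+SCFA and 751 ± 29.7 CPM in GF livers. Its reads may be shared with other genes of the Cyp2c family, so its level is uncertain. An r of 0.9 or more was reached by 206 genes (1.71%) for Eif4ebp3 and by 190 genes (1.58%) for Ddit4.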

How the data were processed

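Polyadenylated liver RNA was sequenced in 9 samples of 3 groups. A Qiagen kit and TruSeq Stranded mRNA libraries were used, per the labels' protocols. Bowtie2, RSEM 1.2.23 and mm9 are named in the submitters' processing notes. How strand was set is not given in the sources used here, and reads of antisense genes may be shared. The deposited expected counts are the authors' unnormalised RSEM estimates for 20325 gene rows, and 46.7% of the values above 0 were not whole (by more than 1e-09). The deposited TPM values were scaled by the authors for length and depth; the deposited FPKM values were not used.

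Expected counts were rounded, filtered with edgeR 4.0.16 (filterByExpr, minimum count 10), scaled by TMM and tested with the quasi-likelihood F test over all 9 samples in R 4.3.3. Benjamini-Hochberg adjustment ran over 12037 genes, and a gene was called at an adjusted p under 0.05. CPM values use TMM-scaled library sizes. The biological coefficient of variation was 10.6%. The fit was tested on simulated data. Alternatives were other scalings, no low-count filter, DESeq2 1.42.0, a replicate block, only the groups compared, leaving out each liver, and limma 3.58.1 on log2(TPM + 1). Named genes were the 10 genes, up to 3 called genes per list with the smallest adjusted p in ConvD against GF, and the 5 genes most like Eif4ebp3 and like Ddit4. The genes and lists were chosen with earlier results of these data known. Symbols matched for 172 of 173 pathway genes and 56 of 57 cell type markers. Promoters come from RefSeq (GRCm38.p6), a build other than that of the counts.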

Additional observations from a re-analysis of the deposited data

How the results depend on the processing

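Over the 17 alternatives no called difference of the 10 genes changed direction, and neither did those of Eif4ebp3 and Ddit4. Differences smaller than their SE changed sign under some settings, namely Eif4ebp1 and Sesn1 in all 3 comparisons, Mtor in ConvD against GF, Sesn3 and Rptor in ConvD against GF+SCFA, and Sesn2 and Tsc1 in GF+SCFA against GF. Of the 10 genes, 2 were called in ConvD against GF, and 1 was with upper-quartile factors, library totals, only the 2 groups compared or limma on TPM; leaving out single livers gave 0 to 2. Against GF+SCFA 1 was called in ConvD, and 2 were with upper-quartile factors, the replicate block or limma on TPM, 3 with library totals or only the 2 groups compared, and 0 to 3 with single livers left out. In GF+SCFA against GF the count was 0, and 0 to 1 with single livers left out. Of the 81 pathway genes, 10 were called in ConvD against GF, 6 with library totals, 3 with limma on TPM and 3 to 11 with single livers left out; in ConvD against GF+SCFA, 8 were called and 4 to 10 with single livers left out. The cause of these shifts was not tested. Over all genes, 1544 were called in ConvD against GF, 1019 with limma on TPM, 849 without ConvD replicate 2, 918 without GF replicate 1 and 936 without ConvD replicate 1. Against GF+SCFA 2216 were called in ConvD, 1383 without GF+SCFA replicate 2, 1400 without GF+SCFA replicate 3, 1465 without ConvD replicate 2 and 1482 without ConvD replicate 1. In GF+SCFA against GF 5 were called, 9 with library totals, 24 without the filter, 82 with DESeq2, 173 without GF replicate 3 and 1 with limma on TPM, with 0 to 173 over the refits without 1 liver. Livers with the same replicate number deviated together with correlations of -0.07 to 0.14, so the numbers were not taken to pair the livers; with the replicate block 2 of the 10 genes were called in ConvD against GF, 2 in ConvD against GF+SCFA (Mtor at 0.33, adjusted p = 0.0291, was the added one) and 0 in GF+SCFA against GF, and 1514, 2195 and 5 genes in all.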
